A study of Mus musculus with 4 samples.

Results

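Early erythroid progenitors are the bone marrow cells that have started to make red blood cells but hold little haemoglobin. They were selected on measured values in all 4 single-cell RNA libraries: 5 or more UMIs in sum of Klf1, Car1 and Rhag, haemoglobin genes below 5% of the cell's UMIs, no UMI of the endothelial gene Cdh5, fewer than 10 of the platelet-lineage gene Pf4 and fewer than 20 of the stromal gene Cxcl12. A UMI is a molecular barcode that counts 1 captured RNA molecule. The rule took 570 of the 19134 cells that held at least 500 genes and at most 10% mitochondrial UMIs. There were 85 in the irradiated Vegfc-deleted library, 335 in the non-irradiated Vegfc-deleted library, 24 in the irradiated control library and 126 in the non-irradiated control library.

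Red cell production starts from Kit-bearing progenitors, which respond to stem cell factor, and passes to a stage that needs erythropoietin and its receptor Epor for survival. The transcription factor Gata1 and its partner Klf1 switch on the genes of haem synthesis, membrane skeleton and globin, while Gata2, the factor of the earlier stage, is switched off. The cells divide several times along this path and lose their content of ribosome-building factors as haemoglobin accumulates. After sublethal irradiation the marrow loses dividing progenitors and erythropoiesis is rebuilt from the survivors.

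All mice were of the C57Bl/6JCrl strain with Vegfc flox/flox alleles, and Vegfc encodes a growth factor best known for acting on lymphatic vessels. The 4 libraries were irradiated Vegfc-deleted (2 mice pooled), non-irradiated Vegfc-deleted (3 pooled), irradiated control (2 pooled) and non-irradiated control (3 pooled). Deleted mice also carried Rosa26-CreERT2, an inducible recombinase expressed from a locus active in nearly all cells, so the deletion was not restricted to a cell type; tamoxifen was given in 5 intragastric doses at 7 to 8 weeks of age. The labels give tamoxifen to both genotypes in one place and to fewer samples in another, and their numbers of irradiated mice differ, so whether the controls received it cannot be stated. Irradiation was 4 Gy to the whole body 2 weeks later, and marrow of the tibia was taken 7 days after it. All libraries came from digested marrow sorted for live cells without lineage markers, CD45 and Ter119. Ter119 marks maturing erythroid cells, so the sort removed an unknown share of the later stages. Whether sorting on CD45 and lineage markers also removed early cells was not measured. Each group is 1 library of pooled mice, so no test between groups was possible; every 95% interval covers counting error only, and the 4 comparisons share libraries with each other.

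The libraries held 54462123 to 77284922 UMIs in all. Members were deep, with a median of 64946 UMIs per cell in the irradiated Vegfc-deleted, 41092 in the non-irradiated Vegfc-deleted, 67240.5 in the irradiated control and 42124.5 in the non-irradiated control library, against medians of 7881 to 10073 over all kept cells. The irradiated control value for every gene rests on 24 cells. Free RNA was gauged by haemoglobin in non-erythroid cells, where these genes made up a median of 0.0165% of UMIs in the irradiated and 0.407% in the non-irradiated Vegfc-deleted library, and 0.0530% in the irradiated and 0.729% in the non-irradiated control library. Scrublet, a doublet caller run as an alternative, would have removed 3 members of the irradiated and 14 of the non-irradiated Vegfc-deleted library and 0 of the irradiated and 8 of the non-irradiated control library, and no cell was removed here. Of the 171 barcodes found in more than 1 library, 117 were shared by both non-irradiated libraries. They included the barcodes of 31 members, 10 in the non-irradiated Vegfc-deleted and 21 in the non-irradiated control library, and none of their 31 partners was a member.

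The deletion could not be checked in these cells. Vegfc had 0 UMIs in the irradiated and 1 in the non-irradiated Vegfc-deleted members, and 0 in the irradiated and 2 in the non-irradiated control members. A 3' count also checks the deletion only if the deleted part affects the counted RNA, and the labels do not say which part was deleted.

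Of the markers listed for these cells, the rule left out Epor and Kit. Gata1, an erythroid gene in neither the list nor the rule, was found more often in members than in non-erythroid cells in all 4 libraries. Non-erythroid cells are the kept cells that did not meet the rule at any haemoglobin level. They are not free of erythroid RNA: in the non-irradiated control library 24.7% held Rhag and 38.1% held Alas2. A UMI of Gata1 was found in 100% of the irradiated and 86.0% of the non-irradiated Vegfc-deleted members, and in 87.5% of the irradiated and 81.0% of the non-irradiated control members. With every cell thinned to 3000 UMIs the shares were 31.8% in the irradiated and 31.7% in the non-irradiated Vegfc-deleted members and 43.5% in the irradiated and 38.4% in the non-irradiated control members, against 1.31% to 4.96% of the non-erythroid cells of the 4 libraries thinned alike. Epor was found in 91.8% of the irradiated and 81.8% of the non-irradiated Vegfc-deleted members and in 79.2% of the irradiated and 65.1% of the non-irradiated control members, against 13.8% to 32.4% of non-erythroid cells at their lower depth. After thinning Epor was in 17.6% of members and 6.40% of non-erythroid cells of the irradiated Vegfc-deleted library, in 23.2% and 9.57% in the non-irradiated Vegfc-deleted library, in 8.70% and 14.2% in the irradiated control library and in 20.5% and 10.8% in the non-irradiated control library. In the irradiated control library, with 23 members left after thinning, Epor was therefore not found more often than in non-erythroid cells. Kit, the receptor for stem cell factor, was found in 44.7% of the irradiated and 40% of the non-irradiated Vegfc-deleted members and in 50% of the irradiated and 41.3% of the non-irradiated control members, against 7.63% to 11.8% of non-erythroid cells. After thinning it was in 0% to 8.25% of members and in 2.11% to 6.43% of non-erythroid cells, which are too close to each other to place the stage. Gata2, also outside the rule, was then in 10.6% of members and 4.80% of non-erythroid cells of the irradiated Vegfc-deleted library. In the non-irradiated Vegfc-deleted library it was in 1.59% and 3.86%. In controls it was in 21.7% and 10.5% with irradiation and in 8.93% and 9.47% without. Cd34, a gene of earlier progenitors, had 0 UMIs in the irradiated and 2 in the non-irradiated Vegfc-deleted members and 0 in the irradiated and 3 in the non-irradiated control members. The word early refers here to low haemoglobin.

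The limits of the rule cut through a continuum. Members with 5 or 6 UMIs of Klf1, Car1 and Rhag numbered 0 in the irradiated and 13 in the non-irradiated Vegfc-deleted library and 2 in the irradiated and 10 in the non-irradiated control library, and cells just outside with 3 or 4 numbered 7 in the irradiated and 22 in the non-irradiated Vegfc-deleted library and 1 in the irradiated and 17 in the non-irradiated control library. More cells of the non-irradiated libraries lay near the haemoglobin limit. Members at 4 to 5% haemoglobin numbered 1 in the irradiated and 34 in the non-irradiated Vegfc-deleted library and 0 in the irradiated and 9 in the non-irradiated control library, and erythroid cells just outside at 5 to 6% numbered 0 in the irradiated and 34 in the non-irradiated Vegfc-deleted library and 0 in the irradiated and 13 in the non-irradiated control library.

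Promoters of members of the rule and of the markers are shown because these genes place the cells in the erythroid lineage, together with that of C2cd4a, one of the genes with the highest irradiation ratio. Each is the 250 bases before the RefSeq start on the gene's strand in GRCm38.p6, in lower case, with capitals for a match to the GATA-factor motifs AGATAA or TGATAA on either strand.
Klf1, chr8:84901732-84901981, plus strand: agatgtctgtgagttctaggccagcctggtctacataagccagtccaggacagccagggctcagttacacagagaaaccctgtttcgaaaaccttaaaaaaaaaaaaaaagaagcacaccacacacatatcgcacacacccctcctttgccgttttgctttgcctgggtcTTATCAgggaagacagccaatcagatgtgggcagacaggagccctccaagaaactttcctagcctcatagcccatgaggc
Rhag, chr17:40810899-40811148, plus strand: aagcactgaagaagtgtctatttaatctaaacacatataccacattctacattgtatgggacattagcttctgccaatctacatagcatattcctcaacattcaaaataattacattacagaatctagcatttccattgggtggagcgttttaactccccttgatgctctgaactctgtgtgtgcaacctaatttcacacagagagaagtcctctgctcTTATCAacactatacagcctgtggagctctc
Epor, chr9:21963577-21963826, minus strand: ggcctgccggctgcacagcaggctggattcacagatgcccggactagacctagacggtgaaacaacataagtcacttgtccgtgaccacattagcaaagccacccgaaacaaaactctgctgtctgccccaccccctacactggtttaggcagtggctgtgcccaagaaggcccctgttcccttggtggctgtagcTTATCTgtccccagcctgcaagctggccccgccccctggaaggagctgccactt
C2cd4a, chr9:67832331-67832580, minus strand: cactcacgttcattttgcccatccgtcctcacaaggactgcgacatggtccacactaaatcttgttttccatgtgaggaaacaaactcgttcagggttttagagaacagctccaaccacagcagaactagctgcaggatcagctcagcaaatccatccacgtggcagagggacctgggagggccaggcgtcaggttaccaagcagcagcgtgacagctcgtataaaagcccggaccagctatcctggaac
The promoters of Klf1, which encodes the factor that drives adult globin, and of Rhag, a subunit of the Rh membrane complex, each held TGATAA on the opposite strand, with its nearest base 75 and 26 bases before the start. The Epor promoter held AGATAA on the opposite strand, with its nearest base 49 bases before the start. The C2cd4a window held neither motif, nor CCACACCC, a motif of the Klf1 family. Of 32851 promoter windows of the same length, 9.99% held AGATAA, 7.94% held TGATAA, 16.6% held either and 3.20% held CCACACCC, so a match is common and is given as a description. Car1 and Podxl were not among the matched entries.

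Early erythroid progenitors made up 2.01% of kept cells (exact 95% interval 1.60 to 2.47) in the irradiated and 6.05% (5.44 to 6.71) in the non-irradiated Vegfc-deleted library. In controls they made up 0.604% (0.387 to 0.897) in the irradiated and 2.34% (1.95 to 2.78) in the non-irradiated library. With irradiation the share was lower in both genotypes, by 3.02-fold (2.37 to 3.87) in Vegfc-deleted and by 3.88-fold (2.49 to 6.28) in control marrow. Between genotypes it was 3.32-fold higher (2.09 to 5.46) in Vegfc-deleted than in control marrow with irradiation and 2.58-fold higher (2.1 to 3.20) without. The direction between genotypes turned under a single alternative. Leaving out members with 3 or more UMIs of other lineages turned the log2 ratio of the shares, Vegfc-deleted over control, to -1.68 with irradiation, against 1.73 with all members, and to -0.71 without irradiation, against 1.37. That left 2 members in the irradiated and 42 in the non-irradiated Vegfc-deleted library and 6 in the irradiated and 67 in the non-irradiated control library. The cut took out 83 of 85 and 293 of 335 members of the irradiated and non-irradiated Vegfc-deleted libraries. In controls it took out 18 of 24 and 59 of 126. A limit of 3 UMIs does not scale with depth, and members were deep. Leaving out members with 1% or more of their UMIs from other lineages turned none of the 4 ratios, and neither did doublet removal. With every cell thinned to 3000 UMIs the log2 ratio with irradiation was 0.55. It rested on 17 of 3775 cells in the irradiated Vegfc-deleted and 11 of 3582 in the irradiated control library, and is given without an interval. The minimum of 5 UMIs in the rule does not scale with depth either. Shares of a sorted fraction also depend on how many other cells passed the sort, and fewer progenitors cannot be told apart from more of the other cells.

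The share of the erythroid cells that were early gave another order. Of all cells that met the same rule at any haemoglobin level, the early ones were 30.7% (25.3 to 36.5; 85 of 277) in the irradiated and 21.9% (19.9 to 24.1; 335 of 1529) in the non-irradiated Vegfc-deleted library. In controls they were 5.88% (3.80 to 8.63; 24 of 408) in the irradiated and 9.03% (7.58 to 10.7; 126 of 1395) in the non-irradiated library. On this scale the irradiated share was 1.40-fold the non-irradiated one (1.09 to 1.78) in Vegfc-deleted marrow, opposite in direction to the share of kept cells. In control marrow it was 1.54-fold lower (0.987 to 2.49), an interval that includes no difference. Vegfc-deleted marrow held the larger early share in both states, by 5.22-fold (3.28 to 8.58) with irradiation and by 2.43-fold (1.97 to 3.00) without.

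The next stage, with haemoglobin at 5 to 25% of UMIs, was the one furthest apart with irradiation. Such cells were 0.236% of kept cells in the irradiated and 7.96% in the non-irradiated Vegfc-deleted library, and 0.403% in the irradiated and 7.41% in the non-irradiated control library. That is 33.8-fold lower (18.2 to 70.9) in Vegfc-deleted and 18.4-fold lower (11.2 to 32.5) in control marrow, and both intervals lie beyond those of the early cells. The interval of the middle stage included no difference between genotypes, at 0.586-fold (0.238 to 1.37) in Vegfc-deleted over control marrow with irradiation and 1.07-fold (0.936 to 1.23) without.

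**Figure D1:**
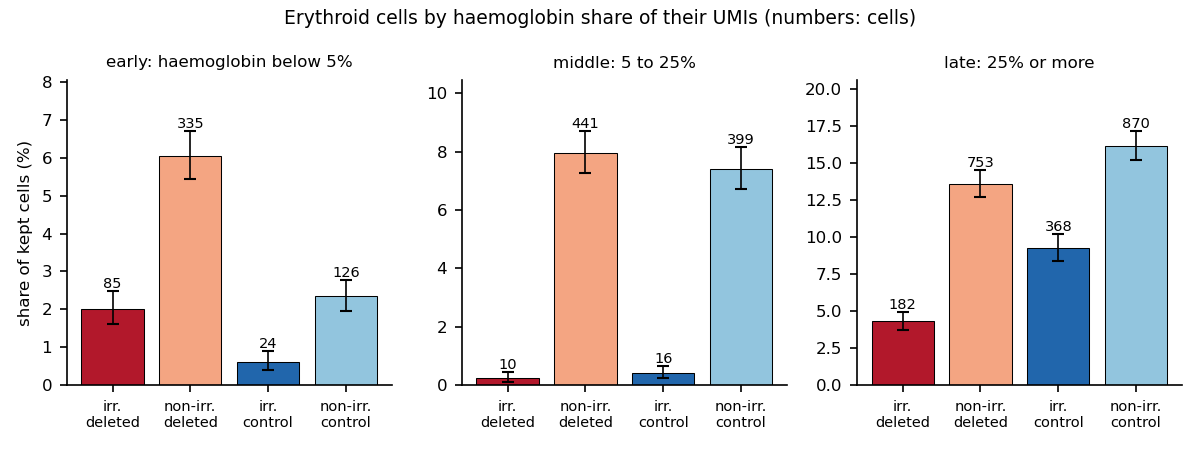
Share of kept cells (percent) for erythroid cells below 5%, at 5 to 25% and at 25% or more haemoglobin, 1 bar per library with the exact 95% interval of counting error and the number of cells. The early share was 2.01% and 0.604% in the irradiated libraries against 6.05% and 2.34% in the non-irradiated libraries of Vegfc-deleted and control marrow, while the middle share was below 0.5% in both irradiated libraries.

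Within the members, other genes varied with the haemoglobin share. In the non-irradiated Vegfc-deleted library, the largest set, Kit was lower in each higher of 4 haemoglobin classes (below 0.5%, 0.5 to 1%, 1 to 2%, 2 to 5%), at 63.3, 12.9, 6.57 and 1.44 CPM, where CPM is UMIs per 1000000 of the summed cells. Ccnd2, which encodes the early G1 cyclin D2, stood at 35.1, 5.80, 6.57 and 0.576 CPM along the same classes. Other genes ran the other way. Slc4a1, for the membrane anion exchanger band 3, stood at 8.60, 65.7, 196 and 550.2 CPM. Ccnd3, the cyclin D3 gene of later divisions, stood at 139, 345, 453 and 669.9 CPM; Slc4a1 and Ccnd3 were picked after their values were seen. The same classes held Mki67, the proliferation marker, at 683, 1179.9, 1289.5 and 1824 CPM. The irradiated libraries held most of their members at the low end: 72.9% lay below 0.5% haemoglobin in the irradiated and 44.2% in the non-irradiated Vegfc-deleted library, and 87.5% in the irradiated and 47.6% in the non-irradiated control library. For this reason each gene list below is also counted for irradiation among the members below 0.5% haemoglobin, and some single genes are, which leaves 62 cells in the irradiated and 148 in the non-irradiated Vegfc-deleted library and 21 in the irradiated and 60 in the non-irradiated control library.

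Irradiation was the comparison with the most genes apart. The members of each library were summed, and a gene was compared where 1 of the 2 libraries had at least 30 UMIs of it in at least 10 cells. At least 1.5-fold higher stood 17.1% and at least 1.5-fold lower 13.6% of 9315 genes in Vegfc-deleted cells, and 23.2% and 12.6% of 7998 genes in control cells. The median log2 ratio of all genes compared was 0.07 and 0.16. TMM scaling, which trims the most extreme genes before setting the totals, lowers every log2 ratio by 0.14 in Vegfc-deleted and by 0.23 in control cells. It moves the part of the called genes that were higher to 39.5%, against 55.7% by CPM, in Vegfc-deleted cells and to 39.7%, against 64.8%, in control cells, so the balance of higher and lower genes is not fixed by these data. Below 0.5% haemoglobin the shares were 13% higher and 11.9% lower of 8708 genes in Vegfc-deleted cells, and 20.2% higher and 11.9% lower of 7395 genes in control cells.

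Several genes near zero in non-irradiated progenitors were read in most irradiated ones. Podxl, which encodes the sialomucin podocalyxin and is known as a target of erythropoietin signalling, stood at 117 CPM in the irradiated and 0.609 CPM in the non-irradiated Vegfc-deleted cells, and at 95 CPM in the irradiated and 0 CPM in the non-irradiated control cells. It had a UMI in 90.6% and 2.39% of the Vegfc-deleted cells with and without irradiation, and in 79.2% and 0% of the control cells. After thinning to 3000 UMIs the shares were 22.4% and 0% in Vegfc-deleted and 21.7% and 0% in control cells with and without irradiation, so the irradiated cells held it more often at equal depth too. The log2 ratio was 7.51 (6.65 to 8.72) in Vegfc-deleted cells, and the level was at least 185-fold higher in control cells against a floor of 3 UMIs in the non-irradiated library. C2cd4a, a gene named for its C2 domain, stood at 73.8 CPM in the irradiated and 0 CPM in the non-irradiated Vegfc-deleted cells, which is at least 363-fold higher, and at 57.6 CPM in the irradiated and 0.343 CPM (2 UMIs) in the non-irradiated control cells, a log2 ratio of 7.08 (5.49 to 10.5). Cda, for cytidine deaminase, stood at 103 CPM in the irradiated and 1.22 CPM in the non-irradiated Vegfc-deleted cells and at 78.4 CPM in the irradiated and 1.03 CPM in the non-irradiated control cells. For these 3 genes both irradiated libraries lay far above both non-irradiated ones, and below 0.5% haemoglobin the log2 ratio of Podxl in Vegfc-deleted cells was 6.81 and those of Cda were 6.16 and 5.63 in Vegfc-deleted and control cells.

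Fabp5, which encodes a fatty acid carrier, was found in nearly every irradiated progenitor. It stood at 723 CPM in the irradiated and 40.7 CPM in the non-irradiated Vegfc-deleted cells, a log2 ratio of 4.15 (4.03 to 4.28), and at 445 CPM in the irradiated and 54.9 CPM in the non-irradiated control cells, a log2 ratio of 3.02 (2.82 to 3.22). Cell by cell the median was 6.74 and 0.158 UMIs per 10000 in Vegfc-deleted cells with and without irradiation, and 2.73 and 0.316 in control cells. The quartiles did not overlap: the lower quartile was 4.44 in the irradiated and the upper quartile 0.499 in the non-irradiated Vegfc-deleted cells, and 1.79 in the irradiated and 0.715 in the non-irradiated control cells. Cpd, for carboxypeptidase D, stood at 224 CPM in the irradiated and 18.8 CPM in the non-irradiated Vegfc-deleted cells and at 142 CPM in the irradiated and 13.9 CPM in the non-irradiated control cells.

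The genes of the least mature cells included some of the highest. Ccnd2 stood at 194 CPM in the irradiated and 22.1 CPM in the non-irradiated Vegfc-deleted cells, a log2 ratio of 3.13 (2.95 to 3.32), and at 222 CPM in the irradiated and 29.5 CPM in the non-irradiated control cells, a log2 ratio of 2.91 (2.64 to 3.19). It was found in 97.6% of the irradiated and 27.2% of the non-irradiated Vegfc-deleted cells and in 91.7% of the irradiated and 31.7% of the non-irradiated control cells. Among members below 0.5% haemoglobin its log2 ratio was 2.70 in Vegfc-deleted and 2.52 in control cells. Gata2, the GATA factor of multipotent and early erythroid cells, stood at 50.5 CPM in the irradiated and 9.54 CPM in the non-irradiated Vegfc-deleted cells and at 103 CPM in the irradiated and 26.6 CPM in the non-irradiated control cells. Its log2 ratio was 2.40 (2.11 to 2.71) in Vegfc-deleted and 1.95 (1.62 to 2.29) in control cells, and below 0.5% haemoglobin 2.02 in Vegfc-deleted and 1.77 in control cells. Gata2 was not confined to low haemoglobin. Irradiated Vegfc-deleted members held 62.6 CPM below 0.5%, 5.41 at 0.5 to 1%, 1.51 at 1 to 2% and 158 at 2 to 5%. The last value is 27 UMIs in 4 cells. The part of RNA from other lineages in these ratios was not tested. Kit did not go with Ccnd2 and Gata2. It stood at 18.0 CPM in the irradiated and 39.9 CPM in the non-irradiated Vegfc-deleted cells, a log2 ratio of -1.14 (-1.47 to -0.84), and at 45.3 CPM in the irradiated and 49.0 CPM in the non-irradiated control cells, a log2 ratio of -0.10 (-0.53 to 0.28). Below 0.5% haemoglobin the Kit ratio was -1.35 in Vegfc-deleted and -0.44 in control cells. Of the genes of immature progenitors compared, 3 of 7 were at least 1.5-fold higher and 1 of 7 lower with irradiation in Vegfc-deleted cells, and 2 of 6 were higher and 0 of 6 lower in control cells. Below 0.5% haemoglobin 2 of 6 were higher and 2 of 6 lower in Vegfc-deleted cells, and 1 of 6 higher and 0 of 6 lower in control cells. The median log2 ratio of that list was 1.35 in Vegfc-deleted cells, but -0.23 once every cell was thinned to 3000 UMIs, and 0.31 in control cells.

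**Figure D2:**
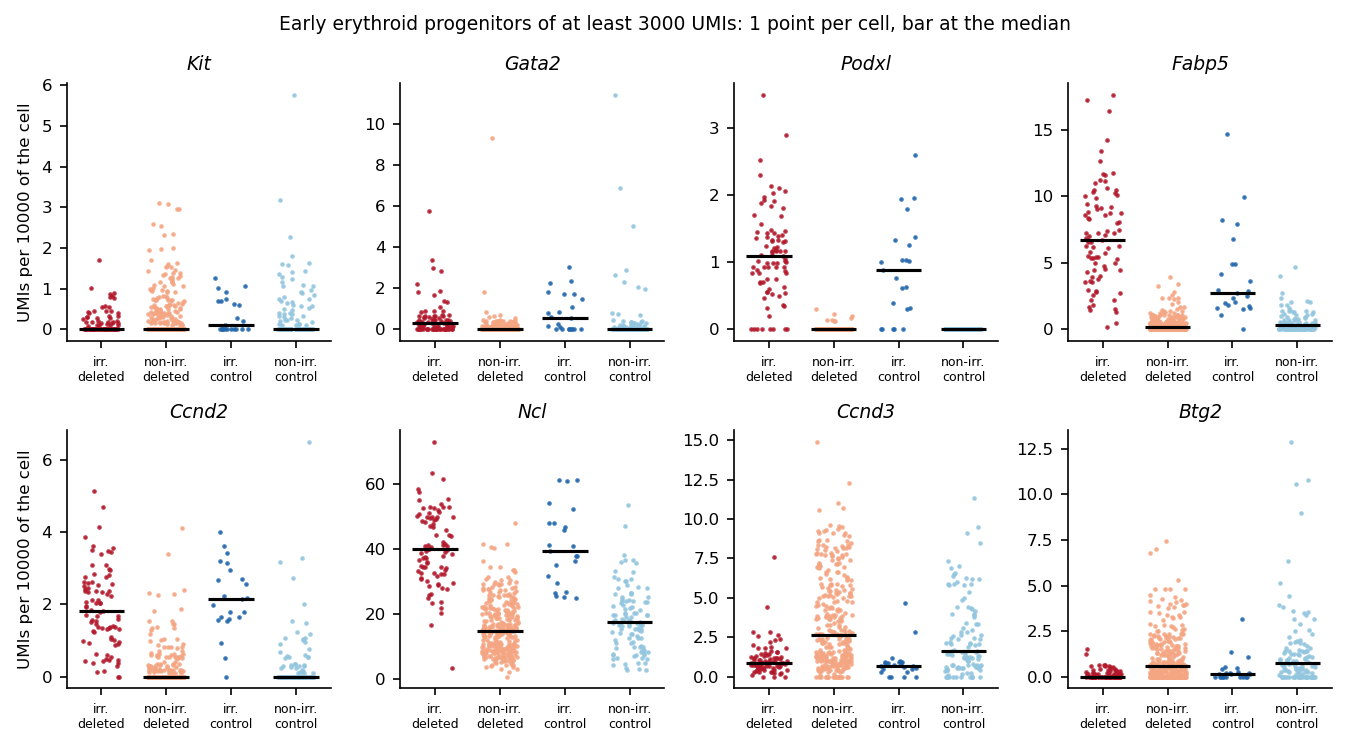
UMIs per 10000 in single members with at least 3000 UMIs for 8 genes, 1 point per cell by library, with a bar at the median. Podxl, Fabp5, Ccnd2 and Ncl lay higher in both irradiated libraries than in their non-irradiated counterparts, Ccnd3 and Btg2 lower, and Kit had a median of 0 or close to it in all 4.

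Genes of erythropoietin and Stat5 signalling were mixed but leaned higher by CPM, and less so by TMM in control cells. Of those compared, 7 of 17 were higher and 2 of 17 lower with irradiation in Vegfc-deleted cells (median 0.57), and 5 of 13 were higher and 2 of 13 lower in control cells (median 0.58). Among members below 0.5% haemoglobin the counts were 7 higher and 2 lower of 15 in Vegfc-deleted cells and 5 higher and 2 lower of 12 in control cells. By TMM 6 of 17 were higher and 2 lower in Vegfc-deleted cells (median 0.44). In control cells 4 of 13 were then higher and 3 lower (median 0.35). The lowest log2 ratio of the list by CPM was -1.17 in Vegfc-deleted and -1.30 in control cells. Besides Podxl, the list held Grb2, an adaptor of receptor signalling, at 101 CPM in the irradiated and 68.2 CPM in the non-irradiated Vegfc-deleted cells and at 145 CPM in the irradiated and 67.9 CPM in the non-irradiated control cells. Pim1, a kinase gene induced by Stat5, stood at 73.3 CPM in the irradiated and 48.5 CPM in the non-irradiated Vegfc-deleted cells and at 98.6 CPM in the irradiated and 67.0 CPM in the non-irradiated control cells. The ratios of Grb2 in Vegfc-deleted cells and of Pim1 in control cells lay just under the 1.5-fold line. Socs2, Osm and Cish, feedback and cytokine genes that Stat5 is known to induce, were picked out after their values were seen. Socs2, an inhibitor of cytokine signalling, had 96 UMIs in the irradiated and 6 in the non-irradiated Vegfc-deleted cells and 20 in the irradiated and 6 in the non-irradiated control cells, with log2 ratios of 5.32 (4.25 to 6.91) in Vegfc-deleted and 3.73 (2.44 to 5.41) in control cells. Osm, for oncostatin M, had 90 and 18 UMIs in Vegfc-deleted cells and 18 and 19 UMIs in control cells with and without irradiation, with log2 ratios of 3.72 (3.01 to 4.57) in Vegfc-deleted and 1.99 (0.98 to 3.00) in control cells. Cish, another inhibitor of the pathway, stood at 16.5 CPM in the irradiated and 3.11 CPM in the non-irradiated Vegfc-deleted cells and at 21.6 CPM in the irradiated and 10.3 CPM in the non-irradiated control cells. Epor itself stood at 85.6 CPM in the irradiated and 98.4 CPM in the non-irradiated Vegfc-deleted cells, a log2 ratio of -0.20 (-0.35 to -0.05), and at 53.3 CPM in the irradiated and 95.2 CPM in the non-irradiated control cells, a log2 ratio of -0.83 (-1.21 to -0.49).

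Ribosome-building genes stood higher with irradiation. Of the 18 genes of the Myc and ribosome biogenesis list, 14 were at least 1.5-fold higher and 0 lower with irradiation in Vegfc-deleted cells (median 0.90), and 12 were higher and 0 lower in control cells (median 0.76). By TMM 11 were higher in Vegfc-deleted and 7 in control cells, with 0 lower in either. Below 0.5% haemoglobin 9 were higher and 0 lower in Vegfc-deleted cells (median 0.56) and 11 higher and 0 lower in control cells (median 0.61). Ncl, for the nucleolar protein nucleolin, stood at 4069 CPM in the irradiated and 1742 CPM in the non-irradiated Vegfc-deleted cells, a log2 ratio of 1.22 (1.20 to 1.25), and at 4207 CPM in the irradiated and 1916 CPM in the non-irradiated control cells, a log2 ratio of 1.13 (1.09 to 1.18). Npm1, for nucleophosmin, stood at 5788 CPM in the irradiated and 3033 CPM in the non-irradiated Vegfc-deleted cells and at 5689.6 CPM in the irradiated and 3368 CPM in the non-irradiated control cells. Nolc1 and Gnl3, which encode further nucleolar proteins, had log2 ratios of 0.96 and 0.87 in Vegfc-deleted and of 0.76 and 0.73 in control cells. Myc, which encodes the growth regulator that activates such genes, stood at 81.8 CPM in the irradiated and 41.1 CPM in the non-irradiated Vegfc-deleted cells and at 77.7 CPM in the irradiated and 29.1 CPM in the non-irradiated control cells. Fbl, for the methyltransferase fibrillarin, was an exception at 350.1 CPM in the irradiated and 332 CPM in the non-irradiated Vegfc-deleted cells and at 385 CPM in the irradiated and 387 CPM in the non-irradiated control cells; Myc and Fbl were picked after their values were seen.

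Part of the genes of glycolysis stood higher as well. Of the genes of glycolysis and hypoxia compared, 8 of 18 were higher and 1 of 18 lower in Vegfc-deleted cells (median 0.53), and 8 of 16 were higher and 2 of 16 lower in control cells (median 0.63). Below 0.5% haemoglobin 6 of 17 were higher and 0 of 17 lower in Vegfc-deleted cells, and 8 of 16 higher and 1 of 16 lower in control cells. Pgam1, for phosphoglycerate mutase, stood at 127 CPM in the irradiated and 21.0 CPM in the non-irradiated Vegfc-deleted cells and at 171 CPM in the irradiated and 27.9 CPM in the non-irradiated control cells, with log2 ratios of 2.59 (2.40 to 2.79) in Vegfc-deleted and 2.61 (2.32 to 2.91) in control cells. Ldha, for lactate dehydrogenase, had log2 ratios of 0.94 (0.88 to 1.00) in Vegfc-deleted and 0.45 (0.34 to 0.56) in control cells, and Hk1, for hexokinase, 0.85 (0.73 to 0.96) in Vegfc-deleted and 0.81 (0.59 to 1.03) in control cells. Heat shock and unfolded protein genes were higher for 6 of 16 and lower for 2 of 16 in Vegfc-deleted cells, and higher for 4 of 16 and lower for 4 of 16 in control cells; their median of 0.19 in control cells became -0.04 by TMM. Below 0.5% haemoglobin 4 of 16 were higher and 2 of 16 lower in Vegfc-deleted cells, and 4 of 16 higher and 4 of 16 lower in control cells. Hspe1 and Hspd1, which encode the mitochondrial chaperonin, stood at 2454 and 1944 CPM in the irradiated and 1224 and 998 CPM in the non-irradiated Vegfc-deleted cells, and at 2327 and 1813 CPM in the irradiated and 1240.2 and 1102 CPM in the non-irradiated control cells. Npm1 and Pgam1, like Actg1 and Ftl1 below, have near-identical processed copies in the genome, so their levels are uncertain where reads map to more than 1 place.

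**Figure D3:**
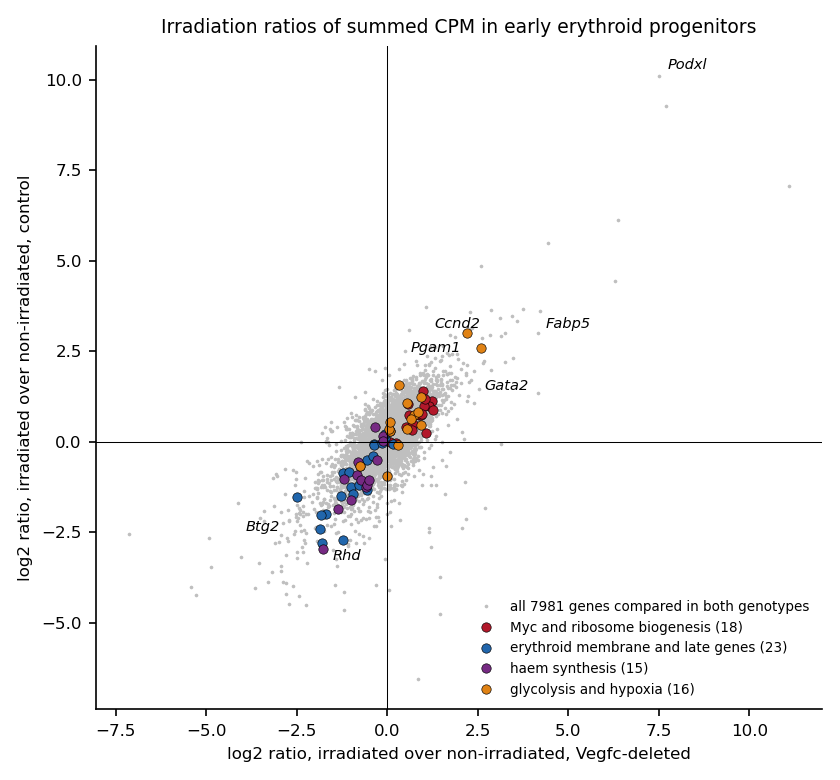
Log2 ratio of summed CPM, irradiated over non-irradiated, for 7981 genes compared in both genotypes, with Vegfc-deleted cells on the horizontal and control cells on the vertical axis. The ribosome genes lay at or above 0 on the horizontal axis and the membrane and haem genes mostly below 0 on both axes; Podxl is drawn with a prior of 0.5 counts.

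Genes of the maturing red cell stood lower. Of those of the erythroid membrane and late stage, 15 of 24 were at least 1.5-fold lower and 0 higher with irradiation in Vegfc-deleted cells (median -0.77), and 15 of 23 lower and 0 higher in control cells (median -1.20). Below 0.5% haemoglobin 11 of 23 were lower and 0 higher in Vegfc-deleted cells (median -0.68) and 15 of 23 lower and 0 higher in control cells (median -0.96). Car2, for carbonic anhydrase 2, stood at 2012 CPM in the irradiated and 4069 CPM in the non-irradiated Vegfc-deleted cells and at 1707 CPM in the irradiated and 4047 CPM in the non-irradiated control cells, with log2 ratios of -1.02 (-1.04 to -0.99) in Vegfc-deleted and -1.25 (-1.31 to -1.18) in control cells. Rhd, which encodes the Rh blood group protein that pairs with Rhag, stood at 110.15 CPM in the irradiated and 382 CPM in the non-irradiated Vegfc-deleted cells and at 54.7 CPM in the irradiated and 381 CPM in the non-irradiated control cells. Its log2 ratio was -1.79 (-1.92 to -1.67) in Vegfc-deleted and -2.79 (-3.15 to -2.47) in control cells, and below 0.5% haemoglobin -1.74 in Vegfc-deleted and -2.71 in control cells. Blvrb, the flavin reductase gene, had log2 ratios of -0.94 in Vegfc-deleted and -1.43 in control cells, and Aqp1, the water channel gene, of -1.23 in Vegfc-deleted and -0.87 in control cells. Ctse, for the protease cathepsin E, stood at 96.7 CPM in the irradiated and 478 CPM in the non-irradiated Vegfc-deleted cells and at 66.2 CPM in the irradiated and 432 CPM in the non-irradiated control cells, with log2 ratios of -2.30 (-2.44 to -2.18) in Vegfc-deleted and -2.70 (-3.02 to -2.41) in control cells. Selenbp1, for a selenium-binding protein, stood at 35.3 CPM in the irradiated and 128 CPM in the non-irradiated Vegfc-deleted cells and at 22.3 CPM in the irradiated and 161 CPM in the non-irradiated control cells.

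Genes of haem synthesis stood lower too. Of the 15 genes compared, 8 were lower and 0 higher in Vegfc-deleted cells (median -0.60) and 9 were lower and 0 higher in control cells (median -1.03). Below 0.5% haemoglobin 7 of 15 were lower in Vegfc-deleted and 8 of 14 in control cells, with 0 higher in either. Urod, for uroporphyrinogen decarboxylase, stood at 117 CPM in the irradiated and 233 CPM in the non-irradiated Vegfc-deleted cells and at 72.7 CPM in the irradiated and 224 CPM in the non-irradiated control cells, with log2 ratios of -0.99 (-1.12 to -0.87) in Vegfc-deleted and -1.62 (-1.93 to -1.33) in control cells. Alad, for an enzyme that acts before Urod, had log2 ratios of -0.84 in Vegfc-deleted and -0.92 in control cells, and Tmem14c, a porphyrin transporter of mitochondria, of -0.50 in Vegfc-deleted and -1.05 in control cells. Alas2, the erythroid form of the first enzyme, was low throughout, at 9.09 CPM in the irradiated and 31.6 CPM in the non-irradiated Vegfc-deleted cells and at 2.88 CPM (4 UMIs) in the irradiated and 25.03 CPM in the non-irradiated control cells. Iron uptake did not follow. Tfrc, the transferrin receptor gene, stood at 618 CPM in the irradiated and 405 CPM in the non-irradiated Vegfc-deleted cells, a log2 ratio of 0.61 (0.55 to 0.67), and at 453 CPM in the irradiated and 289.8 CPM in the non-irradiated control cells, a log2 ratio of 0.65 (0.51 to 0.78). Of 14 genes of iron handling, 2 were higher and 1 lower in Vegfc-deleted cells and 2 higher and 3 lower in control cells. Below 0.5% haemoglobin 2 of 14 were higher and 0 lower in Vegfc-deleted cells, and 2 of 14 higher and 2 lower in control cells.

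Other genes lower in both genotypes included enzymes and a histone. Sqor, for the mitochondrial sulfide oxidoreductase, stood at 6.00 CPM in the irradiated and 55.0 CPM in the non-irradiated Vegfc-deleted cells and at 4.32 CPM in the irradiated and 56.6 CPM in the non-irradiated control cells, with log2 ratios of -3.17 (-3.74 to -2.69) in Vegfc-deleted and -3.60 (-5.17 to -2.57) in control cells. Gatm, which makes the precursor of creatine, had log2 ratios of -2.24 (-2.47 to -2.02) in Vegfc-deleted and -2.0 (-2.43 to -1.63) in control cells, and Slc38a9, for the arginine sensor of lysosomes, of -2.27 (-2.52 to -2.04) in Vegfc-deleted and -2.79 (-3.62 to -2.14) in control cells. Pdcd4, for an inhibitor of translation, stood at 50.4 CPM in the irradiated and 199.7 CPM in the non-irradiated Vegfc-deleted cells and at 55.4 CPM in the irradiated and 212 CPM in the non-irradiated control cells. Hist1h2ap, 1 of a set of nearly identical histone genes and so uncertain, stood at 5.09 CPM in the irradiated and 85.8 CPM in the non-irradiated Vegfc-deleted cells and at 9.36 CPM in the irradiated and 88.0 CPM in the non-irradiated control cells. Nfkbia, which encodes the inhibitor of NF-kB, stood at 55.3 CPM in the irradiated and 293 CPM in the non-irradiated Vegfc-deleted cells and at 158 CPM in the irradiated and 633 CPM in the non-irradiated control cells.

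Cell cycle genes did not move as a block. Of 26 genes of G1 and S phase, 2 were higher and 10 lower in Vegfc-deleted cells (median -0.46) and 4 higher and 5 lower in control cells (median -0.09), but below 0.5% haemoglobin 2 were higher and 1 lower in Vegfc-deleted cells and 4 higher and 5 lower in control cells. Mcm6, a subunit of the replicative helicase, had log2 ratios of -0.68 (-0.78 to -0.59) in Vegfc-deleted and -0.53 (-0.70 to -0.36) in control cells. The cyclin D genes went opposite ways, with Ccnd2 higher while Ccnd3 stood at 107 CPM in the irradiated and 305 CPM in the non-irradiated Vegfc-deleted cells and at 88.5 CPM in the irradiated and 208 CPM in the non-irradiated control cells. Of 22 genes of G2 and M phase, 2 were higher and 1 lower in Vegfc-deleted cells and 1 higher and 3 lower in control cells. Below 0.5% haemoglobin the balance leaned the other way in control cells: 6 of 22 were higher and 0 lower in Vegfc-deleted cells (median 0.25), and 2 of 22 higher and 1 lower in control cells (median 0.14). Per 3000 UMIs the median cell held 14 UMIs of the G1 and S list in the irradiated and 17 in the non-irradiated Vegfc-deleted library, and 15 in the irradiated and 13.5 in the non-irradiated control library. It held 13 of the G2 and M list in the irradiated and 14 in the non-irradiated Vegfc-deleted library, and 9 in the irradiated and 11 in the non-irradiated control library.

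Inhibitors of the cycle leaned lower. Of 9 compared, 6 were lower and 1 higher in Vegfc-deleted cells (median -1.26) and 5 lower and 1 higher in control cells (median -0.91). Below 0.5% haemoglobin 4 of 9 were lower and 1 higher in Vegfc-deleted cells (median -0.45), and 4 of 8 lower and 1 higher in control cells (median -0.52). Btg2, an antiproliferative gene that p53 and differentiation both induce, stood at 15.6 CPM in the irradiated and 91.5 CPM in the non-irradiated Vegfc-deleted cells and at 19.4 CPM in the irradiated and 108 CPM in the non-irradiated control cells, with log2 ratios of -2.54 (-2.88 to -2.23) in Vegfc-deleted and -2.45 (-3.09 to -1.92) in control cells. Cdkn1b, for the inhibitor p27, had log2 ratios of -1.66 (-1.96 to -1.39) in Vegfc-deleted and -0.91 (-1.41 to -0.46) in control cells. Cdkn1a, for the p53-induced inhibitor p21, stood at 10.7 CPM in the irradiated and 5.14 CPM in the non-irradiated Vegfc-deleted cells and at 84.9 CPM in the irradiated and 6.34 CPM in the non-irradiated control cells. A single cell held 35.6% of the irradiated Vegfc-deleted and 51.7% of the irradiated control UMIs of Cdkn1a. Of the p53 targets compared, 3 of 18 were higher and 6 of 18 lower in Vegfc-deleted cells, and 4 of 17 higher and 3 of 17 lower in control cells. DNA repair genes were nearly all within the fold, with 1 of 22 higher and 1 of 22 lower in Vegfc-deleted cells and 1 of 21 each way in control cells. Apoptosis regulators were higher for 1 of 15 and lower for 3 of 15 in Vegfc-deleted cells, and higher for 3 of 15 and lower for 3 of 15 in control cells. Below 0.5% haemoglobin the p53 targets had 4 of 17 higher and 5 of 17 lower in Vegfc-deleted cells, and 2 of 14 higher and 3 of 14 lower in control cells. DNA repair genes then had 0 of 21 higher and 1 of 21 lower in Vegfc-deleted cells and 3 of 21 each way in control cells, and apoptosis regulators had 0 of 14 higher and 4 of 14 lower in Vegfc-deleted cells and 2 of 13 higher and 4 of 13 lower in control cells.

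Antigen presentation and metal-binding genes held members that went different ways. Of the MHC class I list, 2 of 15 were higher and 6 of 15 lower in Vegfc-deleted cells and 3 of 14 higher and 3 of 14 lower in control cells. Below 0.5% haemoglobin 2 of 15 were higher and 8 of 15 lower in Vegfc-deleted cells, and 3 of 14 higher and 4 of 14 lower in control cells. Psmb10, for an immunoproteasome subunit, stood at 158 CPM in the irradiated and 41.5 CPM in the non-irradiated Vegfc-deleted cells and at 177 CPM in the irradiated and 51.6 CPM in the non-irradiated control cells, with log2 ratios of 1.93 (1.78 to 2.08) in Vegfc-deleted and 1.78 (1.53 to 2.03) in control cells. B2m, the light chain of MHC class I, had log2 ratios of -0.79 in Vegfc-deleted and -0.27 in control cells. Mt1 and Mt2, the metallothionein genes that bind zinc and copper, had log2 ratios of 1.23 (1.18 to 1.28) and 1.39 (1.32 to 1.46) in Vegfc-deleted and of 1.23 (1.15 to 1.31) and 1.85 (1.74 to 1.96) in control cells. The antioxidant list as a whole had 4 of 17 higher and 3 of 17 lower in Vegfc-deleted cells, and 5 of 18 higher and 3 of 18 lower in control cells. Below 0.5% haemoglobin it had 4 of 17 higher and 1 of 17 lower in Vegfc-deleted cells, and 5 of 17 higher and 4 of 17 lower in control cells. Interferon response genes were higher for 2 of 16 and lower for 9 of 16 in Vegfc-deleted cells, and higher for 1 of 10 and lower for 4 of 10 in control cells. Below 0.5% haemoglobin 0 of 13 were higher and 7 of 13 lower in Vegfc-deleted cells, while the control balance turned, with 3 of 8 higher and 1 of 8 lower; the control median was -0.09 there, against -0.57 in all members. Of the erythroid transcription factors 5 of 22 were higher and 4 of 22 lower in Vegfc-deleted cells, and 6 of 21 higher and 3 of 21 lower in control cells. Below 0.5% haemoglobin 3 of 21 were higher and 3 of 21 lower in Vegfc-deleted cells, and 5 of 21 higher and 3 of 21 lower in control cells. Among them Bcl11a, known as the repressor of fetal globin in humans, had log2 ratios of 0.82 (0.73 to 0.91) in Vegfc-deleted and 1.16 (0.97 to 1.35) in control cells, and Tfdp2, a partner of the E2F factors, of -1.93 (-2.13 to -1.75) in Vegfc-deleted and -1.28 (-1.64 to -0.95) in control cells. Receptors for niche and growth factors were higher for 1 of 16 and lower for 4 of 16 in Vegfc-deleted cells, and higher for 0 of 14 and lower for 3 of 14 in control cells. Below 0.5% haemoglobin these were 1 higher and 5 lower of 16 in Vegfc-deleted cells, and 0 higher and 3 lower of 14 in control cells. Of the VEGF list Vegfa and Vegfb could be compared, and Vegfb had log2 ratios of -1.16 (-1.43 to -0.92) in Vegfc-deleted and -1.39 (-1.97 to -0.90) in control cells, and below 0.5% haemoglobin -1.07 in Vegfc-deleted and -1.50 in control cells. No embryonic globin gene reached the count needed.

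**Figure D4:**
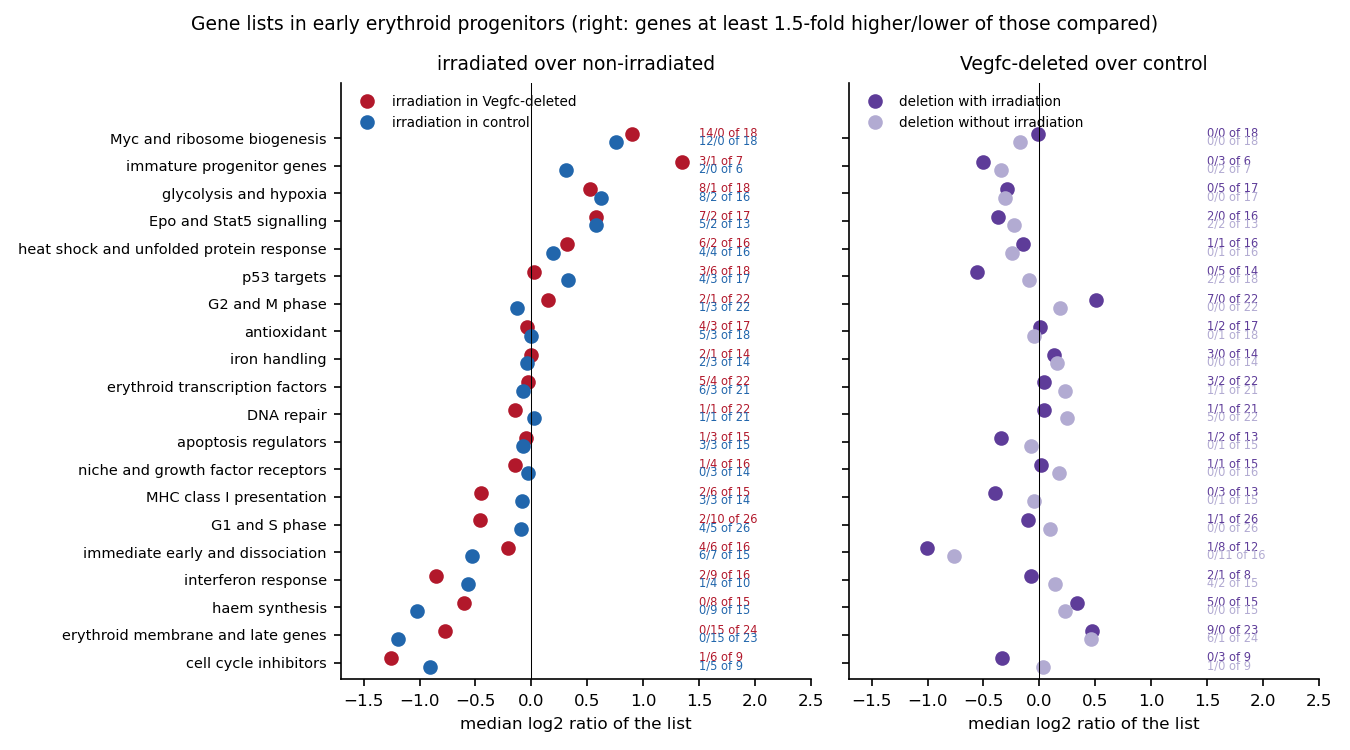
Median log2 ratio of each gene list for irradiated over non-irradiated cells (left) and Vegfc-deleted over control cells (right), with the numbers of genes at least 1.5-fold higher and lower of those compared. The ribosome list had medians of 0.90 and 0.76 and the membrane list of -0.77 and -1.20 for irradiation.

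The later erythroid stages of the same libraries placed these levels along maturation. With 5 to 25% haemoglobin Ncl stood at 1286 CPM in the irradiated and 549 CPM in the non-irradiated Vegfc-deleted cells and at 841 CPM in the irradiated and 534 CPM in the non-irradiated control cells. With 25% or more it stood at 137 CPM in the irradiated and 189 CPM in the non-irradiated Vegfc-deleted cells and at 121 CPM in the irradiated and 213 CPM in the non-irradiated control cells. The irradiated cells thus stood higher in the early and middle stages and lower in the last one. Ccnd2 stood at 129 CPM in the irradiated and 3.53 CPM in the non-irradiated Vegfc-deleted cells and at 61.0 CPM in the irradiated and 3.07 CPM in the non-irradiated control cells of the middle stage. Tfrc was higher at each later stage in all 4 libraries, at 2136 CPM in the irradiated and 1292 CPM in the non-irradiated Vegfc-deleted and 2269 CPM in the irradiated and 1206 CPM in the non-irradiated control cells with 25% or more. Cdkn1a was higher with irradiation at the later stages of both genotypes, at 54.0 CPM in the irradiated and 5.18 CPM in the non-irradiated Vegfc-deleted and 96.3 CPM in the irradiated and 5.43 CPM in the non-irradiated control cells with 25% or more. The middle stage rests on 10 cells in the irradiated Vegfc-deleted and 16 in the irradiated control library.

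**Figure D5:**
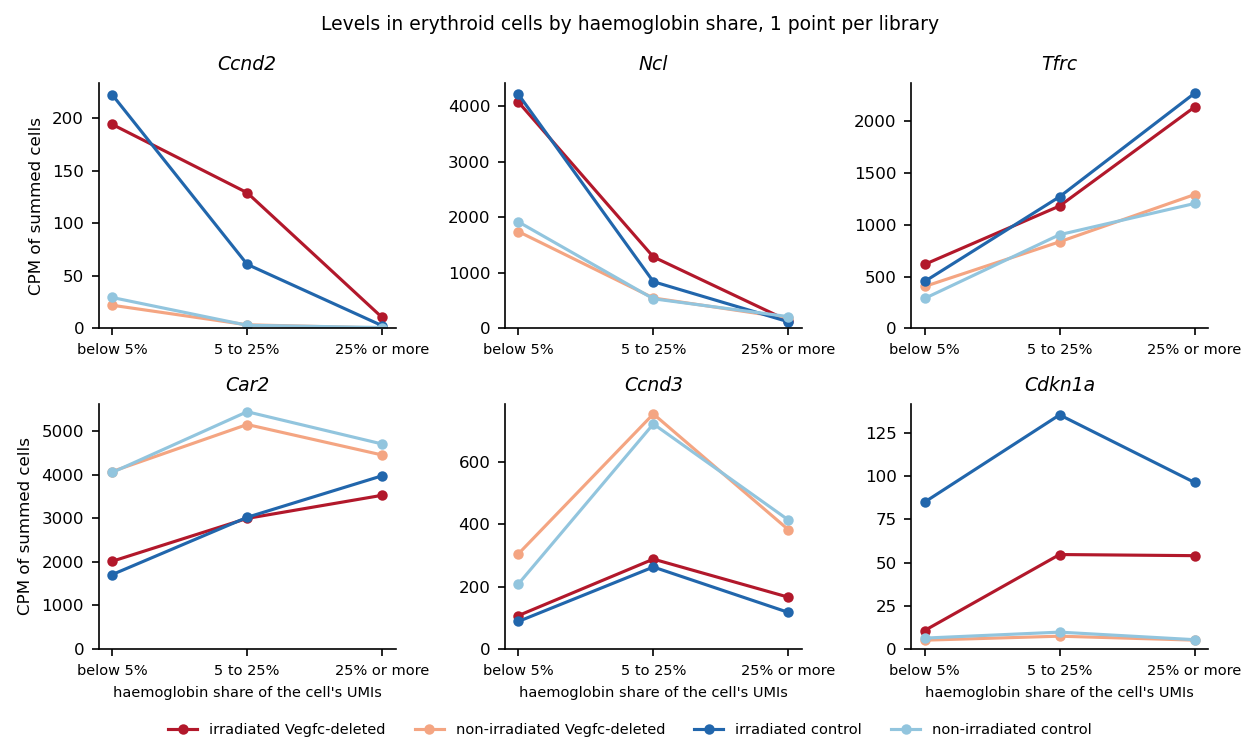
CPM of 6 genes in summed erythroid cells below 5%, at 5 to 25% and at 25% or more haemoglobin, 1 line per library. Ccnd2 and Ncl were highest in early irradiated cells, Tfrc was higher at each later stage, and Car2 and Ccnd3 were lower in irradiated than in non-irradiated cells at all 3 stages.

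Fewer genes stood apart between the genotypes than with irradiation. Deleted mice also carried the recombinase, and whether controls received tamoxifen is unknown. With 1 library per group, these differences and those between pools cannot be told apart from loss of Vegfc. With irradiation 7.05% of 8090 genes were at least 1.5-fold higher and 7.52% lower in Vegfc-deleted than in control cells, and without irradiation 7.02% of 9245 were higher and 3.46% lower. By TMM the part of the called genes that were higher was 60.9% with irradiation, against 48.4% by CPM, and 62.6% without, against 67.0%. Among the leading genes of both states were some of the plasma membrane and of cell division. Atp2b4, for a calcium pump of the plasma membrane, stood at 70.3 CPM in Vegfc-deleted and 38.1 CPM in control cells with irradiation and at 85.2 CPM in Vegfc-deleted and 49.0 CPM in control cells without, with log2 ratios of 0.87 (0.47 to 1.33) with and 0.79 (0.61 to 0.99) without irradiation. Sptb, for the beta chain of spectrin in the red cell skeleton, stood at 70.3 CPM in Vegfc-deleted and 43.9 CPM in control cells with irradiation and at 119 CPM in Vegfc-deleted and 70.6 CPM in control cells without. Cenpf, for a kinetochore protein, stood at 204 CPM in Vegfc-deleted and 97.9 CPM in control cells with irradiation and at 153 CPM in Vegfc-deleted and 102 CPM in control cells without, with log2 ratios of 1.06 (0.80 to 1.33) with and 0.58 (0.45 to 0.71) without irradiation. Aspm, a spindle protein gene, had log2 ratios of 0.56 (0.25 to 0.91) with and 0.61 (0.47 to 0.77) without irradiation, Brca2, for a factor of homologous recombination, 0.62 (0.24 to 1.03) with and 0.61 (0.45 to 0.77) without irradiation, and Ddi2, for a protease, 0.59 (0.24 to 0.97) with and 0.67 (0.45 to 0.89) without. Several of these ratios lay close to the 1.5-fold line, and those of Aspm with irradiation and Cenpf without lay just under it. Thinned to 3000 UMIs, the Aspm ratio without irradiation was -0.099.

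By group, some genes of the membrane and late stage stood higher in Vegfc-deleted cells when all members were summed, and fewer did at low haemoglobin. Of those compared, 9 of 23 were higher and 0 lower with irradiation (median 0.47) and 6 of 24 higher and 1 lower without (median 0.46). Members below 0.5% haemoglobin, which were 72.9% of Vegfc-deleted and 87.5% of control members with irradiation, gave fewer. Among them 3 of 20 genes of this list were higher and 0 lower with irradiation (median 0.32), and 0 of 23 higher and 2 of 23 lower without (median 0.18). Of all genes compared in these members 6.49% were higher and 6.22% lower with irradiation, and 6.57% higher and 2.36% lower without. Sptb then had log2 ratios of 0.53 with and 0.32 without irradiation, under the 1.5-fold line, against 0.67 with and 0.75 without in all members. Haem synthesis had 5 of 15 higher and 0 lower with irradiation, and 0 of 15 higher and 0 lower without. Below 0.5% haemoglobin it had 4 of 13 higher and 0 lower with irradiation, and 0 of 15 either way without. Rhd stood at 110.15 CPM in Vegfc-deleted and 54.7 CPM in control cells with irradiation, a log2 ratio of 1.00 (0.66 to 1.37), and at 382 CPM in Vegfc-deleted and 381 CPM in control cells without, a log2 ratio of 0.00 (-0.07 to 0.08). G2 and M phase genes were higher for 7 of 22 and lower for 0 with irradiation (median 0.50), and 0 of 22 either way without. Below 0.5% haemoglobin 3 of 22 were higher and 0 lower with irradiation, and 0 of 22 either way without. Ube2c, the ubiquitin-conjugating enzyme of mitotic exit, stood at 482 CPM in Vegfc-deleted and 266 CPM in control cells with irradiation and at 299.7 CPM in Vegfc-deleted and 271 CPM in control cells without. Tfrc was higher in Vegfc-deleted cells, with log2 ratios of 0.45 (0.32 to 0.57) with and 0.48 (0.41 to 0.56) without irradiation, both under the 1.5-fold line. Of the ribosome list 0 of 18 genes passed the fold either way in either state. DNA repair genes were higher for 1 of 21 and lower for 1 of 21 with irradiation, and higher for 5 of 22 and lower for 0 without. Below 0.5% haemoglobin 1 of 21 was higher and 1 of 21 lower with irradiation, and 1 of 21 higher and 0 lower without. Genes of glycolysis and hypoxia were higher for 0 and lower for 5 of 17 with irradiation, and 0 of 17 passed the fold either way without. Interferon response genes were higher for 2 of 8 and lower for 1 with irradiation, and higher for 4 of 15 and lower for 2 without. Below 0.5% haemoglobin 0 of 4 passed the fold with irradiation, and 6 of 13 were higher and 1 lower without. Immature progenitor genes were lower for 3 of 6 with irradiation and 2 of 7 without, with 0 higher. Cell cycle inhibitors were lower for 3 of 9 with irradiation and higher for 1 of 9 without. The lists not named in the account of the deletion had at most 4 genes past the fold in a direction.

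Lower in Vegfc-deleted cells were immediate early genes, which digestion of tissue is also known to induce. Of that list 1 of 12 was higher and 8 of 12 lower with irradiation (median -1.01), and 0 of 16 higher and 11 of 16 lower without (median -0.77). Below 0.5% haemoglobin 0 of 12 were higher and 9 of 12 lower with irradiation, and 0 of 15 higher and 10 of 15 lower without. Junb, a subunit gene of AP-1, stood at 103 CPM in Vegfc-deleted and 206 CPM in control cells with irradiation and at 149 CPM in Vegfc-deleted and 355 CPM in control cells without, with log2 ratios of -1.01 (-1.21 to -0.79) with and -1.26 (-1.34 to -1.17) without irradiation. Fosb stood at 143 CPM in Vegfc-deleted and 359.8 CPM in control cells with irradiation and at 38.0 CPM in Vegfc-deleted and 66.4 CPM in control cells without. Nfkbia had log2 ratios of -1.52 (-1.77 to -1.26) with and -1.11 (-1.17 to -1.05) without irradiation, and Tnfaip3, another inhibitor of NF-kB, of -2.71 (-3.11 to -2.33) with and -0.57 (-0.74 to -0.41) without irradiation. The part of tissue handling in these values was not tested. For irradiated over non-irradiated cells the same list had 4 of 16 higher and 6 of 16 lower in Vegfc-deleted cells and 6 of 15 higher and 7 of 15 lower in control cells. Below 0.5% haemoglobin it had 3 of 15 higher and 7 of 15 lower in Vegfc-deleted cells, and 6 of 14 higher and 6 of 14 lower in control cells.

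Gata2 was lower in Vegfc-deleted cells in both states, with log2 ratios of -1.03 (-1.32 to -0.72) with and -1.48 (-1.82 to -1.14) without irradiation, and below 0.5% haemoglobin -0.82 with and -1.06 without irradiation. The order was not particular to the members. In all other kept cells Gata2 stood at 17.7 CPM in Vegfc-deleted and 48.3 CPM in control marrow with irradiation, and at 21.3 and 75.5 CPM without. Non-irradiated members at 2 to 5% haemoglobin held 0.865 CPM in Vegfc-deleted and 25.4 CPM in control marrow. The part of RNA from other lineages in the Gata2 ratios was not tested. Kit had log2 ratios of -1.34 (-1.80 to -0.85) with and -0.30 (-0.50 to -0.09) without irradiation. Actg1, for cytoplasmic actin, stood at 581 CPM in Vegfc-deleted and 1114 CPM in control cells with irradiation and at 449.7 CPM in Vegfc-deleted and 812 CPM in control cells without, with log2 ratios of -0.94 (-1.03 to -0.85) with and -0.85 (-0.91 to -0.80) without irradiation. Polr2l, for a small subunit of RNA polymerase II, had log2 ratios of -0.64 (-1.01 to -0.25) with and -0.66 (-0.85 to -0.47) without irradiation, and 2810474O19Rik of -0.58 (-0.77 to -0.37) with and -0.66 (-0.76 to -0.57) without irradiation. Gm49359, with 36% of its irradiated control UMIs in 1 cell, had -1.0 (-1.41 to -0.57) with and -1.32 (-1.54 to -1.09) without irradiation. Genes of p53 targets were higher for 0 of 14 and lower for 5 of 14 with irradiation, and higher for 2 of 18 and lower for 2 of 18 without.

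Traces of other lineages differed between the libraries too. The 10 neutrophil genes summed to 462 CPM in the irradiated and 2444 CPM in the non-irradiated Vegfc-deleted members, and to 51.8 CPM in the irradiated and 854 CPM in the non-irradiated control members, where 2 of the 10 genes were at 0 in the irradiated control members and none in the others. The median cell held 428 CPM of them in the irradiated and 132 CPM in the non-irradiated Vegfc-deleted library, and 47.3 CPM in the irradiated and 40.8 CPM in the non-irradiated control library. S100a8 was found in 97.6% of members and 91.8% of non-erythroid cells in the irradiated Vegfc-deleted library, in 73.1% and 67.8% in the non-irradiated Vegfc-deleted library, in 62.5% and 42.6% in the irradiated control library and in 46.0% and 28.4% in the non-irradiated control library. The order of the libraries was the same in both kinds of cell. Other traces moved with irradiation. Col1a1, the collagen gene of stromal and bone cells, was found in 75.3% of the irradiated and 18.2% of the non-irradiated Vegfc-deleted members and in 79.2% of the irradiated and 7.14% of the non-irradiated control members. In non-erythroid cells it was found in 39.0% of the irradiated and 18.6% of the non-irradiated Vegfc-deleted library and in 70.2% of the irradiated and 19.9% of the non-irradiated control library. The 10 bone-lineage genes summed to 41.1 CPM in the irradiated and 18.1 CPM in the non-irradiated Vegfc-deleted members and to 65.5 CPM in the irradiated and 16.3 CPM in the non-irradiated control members, with 2, 1, 3 and 4 of the genes at 0 in these 4 libraries. Igkc, an antibody light chain gene of B cells, was found in 63.5% of the irradiated and 13.7% of the non-irradiated Vegfc-deleted members and in 29.2% of the irradiated and 19.0% of the non-irradiated control members. In non-erythroid cells Igkc was found in 32.8% of the irradiated and 15.7% of the non-irradiated Vegfc-deleted library and in 17.9% of the irradiated and 16.0% of the non-irradiated control library. In all other kept cells Col1a1 stood at 6232 CPM with and 916 CPM without irradiation in Vegfc-deleted marrow. In control marrow it stood at 14336 CPM with and 435 CPM without. Igkc stood there at 4759 CPM with and 741 CPM without irradiation in Vegfc-deleted marrow, and at 1134 and 1545 CPM in control marrow. The haemoglobin gauge of free RNA was lower in the irradiated libraries, but it does not measure free RNA of these genes. Members of the irradiated libraries were also deeper. The part of these traces in the irradiation ratios was not tested. Col1a1 and Igkc were picked from the marker lists after their values were seen. Basophil and mast cell genes summed to 158 CPM in the irradiated and 5.08 CPM in the non-irradiated Vegfc-deleted members and to 15.8 CPM in the irradiated and 401 CPM in the non-irradiated control members, and the median cell held 0 in all 4. Members with 1% or more of their UMIs in genes of another lineage numbered 1 in the irradiated and 4 in the non-irradiated Vegfc-deleted library and 0 in the irradiated and 5 in the non-irradiated control library. Leaving them out, an alternative chosen after seeing the data, turned no value that was past the fold.

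The irradiation ratios of some genes differed between genotypes, and these differences have no test. Ftl1, for the ferritin light chain that stores iron, stood at 1987 CPM in the irradiated and 1868 CPM in the non-irradiated Vegfc-deleted cells, a log2 ratio of 0.09 (0.06 to 0.12), and at 1079 CPM in the irradiated and 2165 CPM in the non-irradiated control cells, a log2 ratio of -1.0 (-1.08 to -0.93). Plin2, which coats lipid droplets, had log2 ratios of -0.17 (-0.37 to 0.02) in Vegfc-deleted and -1.23 (-1.77 to -0.76) in control cells. Tnfaip3 had -1.73 (-2.07 to -1.43) in Vegfc-deleted and 0.40 (0.13 to 0.67) in control cells, and Socs4, of the cytokine inhibitor family, -0.57 (-0.82 to -0.34) in Vegfc-deleted and 0.63 (0.22 to 1.02) in control cells. Hist1h3c, a replication histone gene, had -0.05 (-0.20 to 0.09) in Vegfc-deleted and 2.04 (1.80 to 2.28) in control cells, with 26% of its irradiated control UMIs in 1 cell. Fabp5, higher with irradiation in both genotypes, had the larger ratio in Vegfc-deleted cells, and its 2 counting intervals did not overlap.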

How the data were processed

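Marrow cells were profiled with 10x 3' chemistry in 4 libraries, and the deposited matrices hold raw UMI counts per gene (31053 features) that the authors made with Cell Ranger, version 2.1.1 per the submitters' processing notes and 3.1.0 per the file headers, on mm10. The counts were used as deposited, and no cell was removed beyond the limits named in the report. The members and gene lists were chosen with earlier results of these data known. Counts of members were summed per library and divided by the summed UMIs (CPM); log2 ratios carry a prior of 0.5 counts. Genes were compared with at least 30 counts and 10 cells with a UMI in 1 of the 2 libraries, and counted past 1.5-fold; list medians take genes with at least 10 counts over both libraries. With 1 library per group there was no test; 95% intervals are exact (Clopper-Pearson for shares, conditional binomial for ratios) and cover counting error only. Thinning drew 3000 UMIs per cell without replacement. Named genes were the 8 highest and lowest for irradiation, the 6 for the deletion and the 4 for the difference between genotypes, by the ratio nearer to 0 over both strata, at 50 CPM or more and at least 0.5 times the level over all kept cells, plus up to 4 per list by level; genes named outside the rule are marked, and some genes that the rule names are not reported here. Scrublet (scanpy 1.11.5), TMM factors (edgeR 4.0.16), other haemoglobin limits and other minima were alternatives. Promoters came from RefSeq.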

Additional observations from a re-analysis of the deposited data

Results flagged for a closer look

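Ifi27l2a, an interferon-induced gene, had irradiation ratios of opposite sign in the genotypes, at a log2 ratio of 6.07 in Vegfc-deleted cells and -4.20 in control cells; the control value rests on the prior of 0.5 counts, since the irradiated library held none, and against a floor of 3 UMIs the level was at least 3.02-fold lower. It had 263 UMIs in the irradiated and 10 in the non-irradiated Vegfc-deleted cells, and 0 in the irradiated and 38 in the non-irradiated control cells. A single cell held 91.6% of the irradiated Vegfc-deleted and another 68.4% of the non-irradiated control UMIs, and without the highest cell of each library the Vegfc-deleted ratio was 3.02 and the control ratio, again set by the prior, -2.49, with 12 UMIs left in the non-irradiated control cells. With 1 library per group the difference was not tested.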

How the results depend on the processing

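No paired analysis was possible because each group is 1 library of pooled mice, and for the same reason no replicate could be left out. The share of kept cells, as a log2 ratio, was -1.59 for irradiation in Vegfc-deleted marrow and became -1.11 with a haemoglobin limit of 2%, -2.09 with 10%, -3.47 after thinning to 3000 UMIs and -4.01 without members holding 3 or more UMIs of other lineages; it was 0.49, the other direction, as a share of erythroid cells. For irradiation in controls it was -1.95, and became -2.71 after thinning, -3.04 without those members and -0.62 as a share of erythroid cells. With a limit of 0.5%, chosen after seeing the data, the 2 ratios were -0.87 and -1.08. For the deletion with irradiation it was 1.73, became 0.55 after thinning and turned to -1.68 without those members; without irradiation it was 1.37 and turned to -0.71. That alternative left 2, 42, 6 and 67 members in the irradiated Vegfc-deleted, non-irradiated Vegfc-deleted, irradiated control and non-irradiated control libraries, and gave values for single genes and lists for the deletion without irradiation alone. Genes past the fold numbered 2866 and 2865 for irradiation in Vegfc-deleted and control cells and 1178 and 969 for the deletion with and without irradiation. They became 1188, 1137, 317 and 258 at 2-fold and 22494, 23460, 21524 and 20416 with no minimum count. Thinning gave 1330, 586 and 296 for the first 3, and a minimum of 100 counts gave 1601, 468 and 484 for the last 3. Of 5328 values of single genes 895 moved and 7 reversed, and of 1073 values of lists 146 moved and 1 reversed. Thinning to 3000 UMIs moved 200 gene values, reversed 2 and left 77 the same. TMM moved 96 gene values and left 319 the same. The reversed values of genes and lists follow. The immature progenitor list for irradiation in Vegfc-deleted cells was -0.23 after thinning. For irradiation in controls Slc25a37 was 0.25 with a 0.5% limit and Ifi27l2a 1.98 with 10%. For the deletion with irradiation Slc25a37 was -0.0069 with 10% and -0.067 with 0.5%, and Alas2 -0.96 with 10%. For the deletion without irradiation Aspm was -0.099 and Bard1 -0.14 after thinning. The cause was not tested in any of these. The irradiated control values rest on 24 cells and 1389549 UMIs, the fewest of the 4 libraries.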

Other observations

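Bcl2l11, which encodes the death-promoting protein Bim, stood at 4.73 CPM in the irradiated and 42.4 CPM in the non-irradiated Vegfc-deleted cells, a log2 ratio of -3.14 (-3.79 to -2.60). It stood at 9.36 CPM in the irradiated and 33.3 CPM in the non-irradiated control cells, a log2 ratio of -1.78 (-2.77 to -1.02), with 13 UMIs in the irradiated control cells. Isg15, an interferon-induced gene, stood at 27.3 CPM in the irradiated and 26.9 CPM in the non-irradiated control cells, and 1 cell held 76% of the irradiated control UMIs. With 24 members in that library, 1 cell can set the level of a gene.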
